A study of Rattus norvegicus with 144 samples.

Results

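Liver gene expression was compared between 6 rats given 2000 mg/kg acetaminophen and 6 rats given vehicle, all with livers taken 24 h after dosing. These 12 rats were found among the 72 rats of the series by joining the rat number in each array's label to a deposited key of dose and time. All were males of F344/N, an inbred strain of laboratory rat, 10 to 12 weeks old, and carried no gene alteration named in the labels. The drug, or the vehicle of 0.5% ethyl cellulose by itself, was given by oral gavage in 2 doses, and RNA came from the left liver lobe. Livers at 3 and 6 h and doses of 150 and 1500 mg/kg make up the rest of the series, with 6 rats in each of 12 groups. Each rat was measured on 2 two-colour arrays with swapped dyes, and the other channel held RNA pooled from 6 vehicle rats killed at that time. The labels do not say whether those were the vehicle rats compared here.

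Acetaminophen in overdose is oxidised by cytochrome P450 enzymes, mostly in the hepatocytes around the central vein, to a reactive quinone imine. Glutathione traps this product, and once glutathione runs down, the product binds to proteins, above all in mitochondria. Cells meet such damage with several programmes: the NRF2 factor switches on antioxidant and conjugating enzymes, MTF1 responds to free zinc, HSF1 to misfolded cytosolic proteins, and ATF4 to stalled protein synthesis.

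Values are log2 ratios of a rat to the pool, averaged over its 2 arrays, so a difference of 1 between groups is a factor of 2. A ratio carries no absolute level, so liver identity could be read only relative to the pool: of 11 measured hepatocyte markers 2 rose (Arg1 and Fgb, below; 1 with the vehicle and 2000 mg/kg groups fitted alone) and 0 fell, and Apoa1 (-0.03 ± 0.14) and Ttr (0.02 ± 0.12) did not pass. The deposited values were read as log10 of Cy5 over Cy3. Neither the base nor the direction is stated, and the direction is likely and not certain: it rests on known drug-responsive genes such as Nqo1 and Mt1, which are higher in dosed rats when read this way. With the sign turned every rise given here would be a fall of the same size, and every fall a rise. Differences are given ± SE from limma's fit to all 72 rats, with adjusted p (Benjamini-Hochberg over 18978 gene rows) below 0.05 as the threshold. The SE uses 1 spread per gene for all 12 groups and is too small where the dosed rats spread more widely, so calls lost when the vehicle and 2000 mg/kg groups were fitted alone are named beside the gene or list. The median SD among rats was 0.26 in the dosed group and 0.21 in the vehicle group. The number of rats limits the precision.

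Of 18978 gene rows, 2242 rose (11.8%) and 2366 fell (12.5%). Among the 9653 rows with a gene symbol, 1526 rose (15.8%) and 1372 fell (14.2%), and the median difference over all rows was -0.01. Counts of list members below are to be read against these shares. A change of at least 2-fold was seen in 343 rows that rose and 249 that fell, and of at least 4-fold in 45 and 29. The dosed rats lay wholly above the vehicle rats in 942 rows (4.96%) and wholly below them in 1114 rows (5.87%). In 49 of the 144 arrays of the series the same 500 probes were blank, and 2 vehicle rats and 3 dosed rats had both arrays in that set. Within rats outside it 1378 rows rose and 1394 fell, within rats inside it 1006 and 1354. The 2 arrays of vehicle rat 0685 disagreed with each other, with a correlation across genes of 0.31 after removal of the mean dye effect, where 63 of the 72 rats had a negative value. Without the 12 rats of the series whose arrays disagreed, 1978 rows rose and 2194 fell.

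NRF2 targets, the genes of antioxidant defence and quinone reduction, rose almost throughout: of 28 measured members (32 listed) 25 rose and 0 fell, with a median difference of 1.51. For Gpx2, a selenium-containing glutathione peroxidase, and Gclm, the modifier subunit of the enzyme that starts glutathione synthesis, the stretch before the gene start is shown, since both carry a match to the antioxidant response element TGACNNNGC (in capitals, searched on both strands).
Gpx2: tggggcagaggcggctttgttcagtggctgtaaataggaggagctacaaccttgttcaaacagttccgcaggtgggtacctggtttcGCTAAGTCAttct
Gclm: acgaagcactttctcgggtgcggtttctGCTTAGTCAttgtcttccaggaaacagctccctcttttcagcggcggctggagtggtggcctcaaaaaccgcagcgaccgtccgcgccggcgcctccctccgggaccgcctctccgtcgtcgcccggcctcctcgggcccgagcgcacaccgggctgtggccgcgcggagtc
These are RefSeq sequences of build GRCr8, read 5′ to 3′ along the gene up to its start, at chr6:101230034-101230133 (minus strand) for Gpx2 and chr2:213031935-213032134 (plus strand) for Gclm. In the 250 bases before the start, 7 of 22 promoters of measured NRF2 targets (31.8%) held a match, beside 11% of the promoters of 27457 genes. A match describes the letters and says nothing of binding in these livers.

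Akr7a3, an aldehyde and quinone-detoxifying aldo-keto reductase, had the smallest p of the list. Its log2 ratios ran from -0.66 to 0.41 (median 0.02) in the vehicle rats and from 3.56 to 4.59 (median 3.65) in the dosed rats. Every dosed rat was far above every vehicle rat and the dosed rats lay close together, with a difference of 3.88 ± 0.22 (adjusted p = 3.7e-22). Gpx2 ran from -0.40 to 0.05 (median -0.06) in vehicle rats and from 2.07 to 2.79 (median 2.68) in dosed rats, again without overlap, and rose by 2.67 ± 0.18 (adjusted p = 1.5e-18). Nqo1, which reduces quinones by two-electron transfer, ran from -0.58 to -0.01 (median -0.35) and from 1.66 to 2.30 (median 1.76). The groups of Nqo1 stood apart as well, and it rose by 2.16 ± 0.16 (adjusted p = 2.6e-16). Gclm was at -0.04 to 0.49 (median 0.11) in vehicle rats and 1.61 to 3.11 (median 2.58) in dosed rats. It did not overlap between groups and rose by 2.30 ± 0.20. Gss, which completes glutathione from its dipeptide, was at 0.08 to 0.28 (median 0.27) against 1.22 to 2.31 (median 1.87) and rose by 1.60 ± 0.14, also with no overlap.

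**Figure D1:**
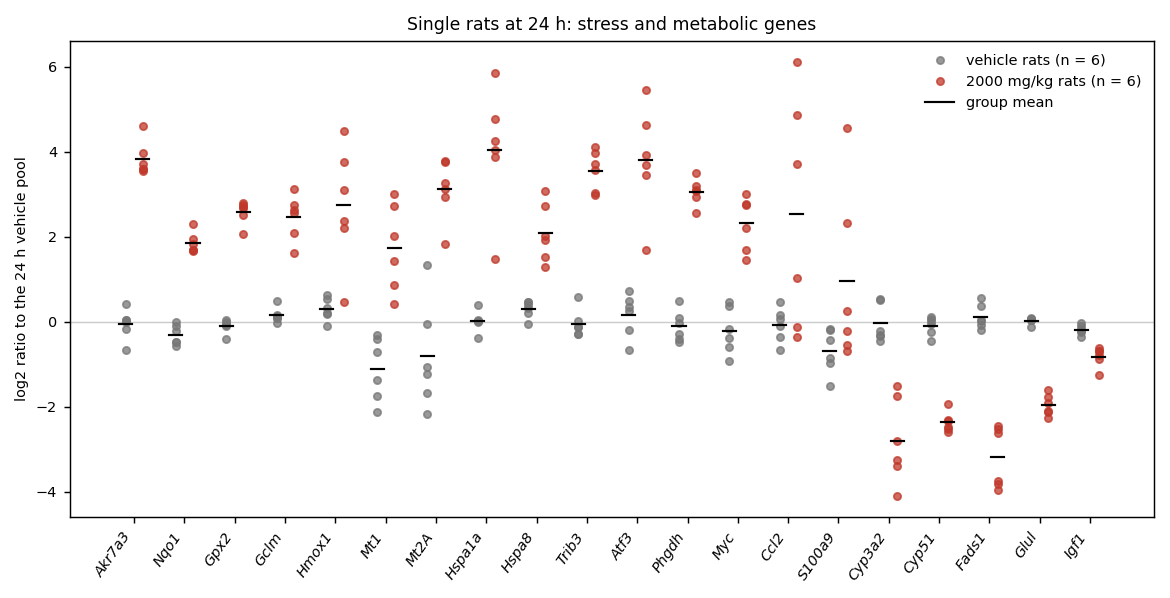
Log2 ratio of each rat to the pool (vertical axis) for named genes, with vehicle rats and 2000 mg/kg rats as points and the group mean as a bar. Akr7a3, Nqo1 and Gpx2 of the dosed rats form tight clusters above the vehicle rats, while Hspa1a of the dosed rats is spread from 1.48 to 5.84 and Ccl2 from -0.36 to 6.10.

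Of 15 measured glutathione transferases, which couple glutathione to reactive compounds, 7 rose (46.7%, beside 15.8% of rows with a symbol), with a median of 0.52. The 2 that fell (13.3%) were a share near the 14.2% of all rows with a symbol. The rises included Gstp1 of the pi class (1.80 ± 0.21), Gsta3 of the alpha class (1.77 ± 0.20) and Gstm4 of the mu class (1.04 ± 0.12). Gstm7 (-1.29 ± 0.18) and the microsomal Mgst3 (-0.98 ± 0.21) fell. Transferases of a class are close in sequence, so a probe may also read a relative. Of 12 measured export pumps 6 rose and 3 fell. Abcg5, part of the sterol exporter of the canalicular membrane, ran from -0.64 to 0.91 (median -0.45) in vehicle rats and from 1.48 to 2.52 (median 2.18) in dosed rats. Vehicle rat 1457 gave the top vehicle value, yet all dosed rats were above it, and Abcg5 rose by 2.34 ± 0.28. Abcb1a, a P-glycoprotein that exports drugs, ran from -0.33 to 0.57 (median -0.12) and from 1.73 to 5.65 (median 2.20). No dosed rat overlapped the vehicle rats, rat 5889 stood well above the other dosed rats, and the rise was 2.75 ± 0.35 (adjusted p = 7.9e-09). Abcc4, which exports conjugates to the blood, rose by 1.57 ± 0.21. The bile salt export pump Abcb11 fell (-0.63 ± 0.09), as did Abcc6 (-0.76 ± 0.14).

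Metallothioneins, small cysteine-rich proteins that bind zinc and copper, gave some of the widest differences between groups. The 200 bases before the start of Mt1 and Mt2A are shown because they hold several matches, 7 and 4, to the metal response element TGCNCNC (capitals, both strands).
Mt1: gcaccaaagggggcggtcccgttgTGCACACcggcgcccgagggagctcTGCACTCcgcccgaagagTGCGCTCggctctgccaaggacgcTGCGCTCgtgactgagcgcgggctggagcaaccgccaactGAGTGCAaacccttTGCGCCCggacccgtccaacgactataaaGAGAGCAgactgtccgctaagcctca
Mt2A: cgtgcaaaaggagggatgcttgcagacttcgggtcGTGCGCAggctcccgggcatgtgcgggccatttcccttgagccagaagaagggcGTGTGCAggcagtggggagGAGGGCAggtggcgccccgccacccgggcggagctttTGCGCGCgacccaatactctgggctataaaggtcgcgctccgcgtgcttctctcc
They are RefSeq GRCr8 sequences at chr19:10832976-10833175 (minus strand) and chr19:10838709-10838908 (minus strand), read along each gene up to its start. All 5 promoters of the measured metal-responsive genes held a match within 250 bases, but this short motif was in 45.9% of all promoters. Of these 5 genes 4 rose and 0 fell, with a median of 1.84. The median over the 5 genes ran from -1.43 to -0.08 in the vehicle rats, below the pool, and from 0.41 to 2.08 in the dosed rats. Mt2A ran from -2.17 to 1.34 (median -1.14) in vehicle rats and from 1.83 to 3.78 (median 3.20) in dosed rats. The vehicle rats themselves covered a wide range, but the groups did not overlap, and Mt2A rose by 3.93 ± 0.48 (adjusted p = 2.5e-09). Mt1 ran from -2.12 to -0.32 (median -1.04) and from 0.41 to 3.01 (median 1.72), without overlap, and rose by 2.85 ± 0.42 (adjusted p = 2.9e-07). Both genes are related in sequence, so a probe of either may also read the other. The brain-type metallothionein Mt3 rose by 1.84 ± 0.37. The zinc exporter Slc30a1 rose by 1.05 ± 0.39 (adjusted p = 0.042), a call lost without vehicle rat 0685 (0.80, adjusted p = 0.161) or any 1 of 6 other rats. The factor Mtf1 itself differed by -0.11 ± 0.13 and did not pass, and its probes differed in sign.

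Of 20 measured heme and iron genes 7 rose (35%) and 2 fell (10%, beside 14.2% of rows with a symbol). Their median was 0.04. Hmox1, heme oxygenase, ran from -0.09 to 0.63 (median 0.27) in vehicle rats and from 0.46 to 4.49 (median 2.74) in dosed rats. Rat 9540 lay inside the vehicle range and the other 5 dosed rats above it, and Hmox1 rose by 2.44 ± 0.50 (adjusted p = 0.00012). The ferritin chains that store iron rose unequally, Ftl1 by 1.48 ± 0.16 and Fth1 by 0.59 ± 0.12. Biliverdin reductase B, Blvrb, rose by 0.62 ± 0.08, whereas the A form Blvra fell (-0.53 ± 0.08) and so did Alad of heme synthesis (-0.57 ± 0.15).

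Heat shock proteins and their cochaperones rose widely: 18 of 23 measured members rose and 0 fell, with a median of 1.14. The constitutive chaperone Hspa8 carries 2 matches to the heat shock element GAANNTTC in the 220 bases before its start, shown here with the matches in capitals.
Hspa8: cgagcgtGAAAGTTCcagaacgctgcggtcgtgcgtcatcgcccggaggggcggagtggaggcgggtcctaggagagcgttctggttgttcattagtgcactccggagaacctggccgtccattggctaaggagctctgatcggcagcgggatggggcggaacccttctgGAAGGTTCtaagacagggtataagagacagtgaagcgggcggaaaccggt
This RefSeq GRCr8 stretch lies at chr8:50080294-50080513 (plus strand) and is read along the gene. A match within 250 bases was present in 9 of 18 promoters of measured members (50%) and in 7.71% of all promoters. Hspa1a, the stress-inducible HSP70, differed widely between the groups. It ran from -0.38 to 0.39 (median 0.02) in vehicle rats and from 1.48 to 5.84 (median 4.14) in dosed rats. All dosed rats were above all vehicle rats, but they differed widely among themselves, and the rise was 4.02 ± 0.58 (adjusted p = 1.3e-07). HSP70 genes share long stretches of sequence, so the probe may read relatives. Hsp90aa1, the inducible HSP90, was at -0.64 to -0.04 (median -0.22) against 0.97 to 3.34 (median 2.26) and rose by 2.38 ± 0.27 with no overlap. Hspa8 was at -0.05 to 0.48 (median 0.37) against 1.28 to 3.07 (median 1.97) and rose by 1.79 ± 0.21, with no overlap. The HSP90 cochaperones Ahsa1 and Stip1 rose by 1.14 ± 0.13 and 1.37 ± 0.18, and the mitochondrial chaperonin Hspd1 by 1.78 ± 0.23. Zfand2a, a zinc finger protein induced by arsenite and heat, rose by 3.42 ± 0.49.

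Genes of ER quality control changed less: 11 of 18 measured members rose and 1 fell, with a median of 0.46. Hspa5, the main ER chaperone also known as BiP, rose by 0.90 ± 0.17, Hsp90b1 by 0.72 ± 0.15 and Creld2 by 0.96 ± 0.21. The calcium-binding Nucb2 fell (-0.29 ± 0.07). Proteasome subunits rose in most cases. Of 37 measured subunits 26 rose and 3 fell, with a median of 0.46, and the median over subunits lay between 0.36 and 0.52 in each of the 6 dosed rats and between -0.06 and 0.06 in the vehicle rats. Psmc5, an ATPase of the proteasome cap, was at -0.12 to 0.32 (median 0.19) in vehicle rats and 0.84 to 1.06 (median 1.0) in dosed rats, with no overlap, and rose by 0.84 ± 0.07. The exchange subunits of the immunoproteasome went the other way. Psmb9 was at -0.48 to 0.12 (median -0.11) against -1.75 to -0.71 (median -1.05) and fell (-1.0 ± 0.15), and Psmb8 fell as well (-0.79 ± 0.13), both with no overlap between groups. Of 27 measured autophagy and lysosome genes 6 rose and 3 fell (5 fell without rat 9388, and 3 rose with the groups fitted alone), with the autophagy receptor Sqstm1 up by 1.04 ± 0.14 and the lysosomal protease Ctsc down (-0.96 ± 0.11).

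Genes of the ATF4 programme, which raise amino acid uptake and synthesis when translation stalls, rose in 25 of 31 measured cases with 0 falls and a median of 1.12. Stretches of 100 bases before the start are shown for Trib3 and Slc7a1, which hold the C/EBP-ATF composite motif TGATGNAA (capitals, both strands).
Trib3: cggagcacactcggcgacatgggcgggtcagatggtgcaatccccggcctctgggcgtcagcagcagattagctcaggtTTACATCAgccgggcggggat
Slc7a1: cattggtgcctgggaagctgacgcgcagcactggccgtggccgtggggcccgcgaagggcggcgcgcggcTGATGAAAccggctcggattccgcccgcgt
These RefSeq GRCr8 stretches lie at chr3:161275534-161275633 (minus strand) and chr12:11664388-11664487 (plus strand), read along each gene. Within 250 bases, 6 of 29 promoters of measured members (20.7%) held a match and 3.58% of all promoters did. Trib3, a pseudokinase that feeds back on ATF4, ran from -0.30 to 0.58 (median -0.13) in vehicle rats and from 2.98 to 4.11 (median 3.63) in dosed rats. The groups were far apart and the dosed rats close together, and Trib3 rose by 3.60 ± 0.34 (adjusted p = 5.4e-13). Phgdh, the first enzyme of serine synthesis, was at -0.47 to 0.49 (median -0.16) against 2.55 to 3.50 (median 3.09) and rose by 3.16 ± 0.27 (adjusted p = 2.2e-14), without overlap. Atf3, a factor downstream of ATF4, was at -0.67 to 0.71 (median 0.29) against 1.68 to 5.45 (median 3.80). Its dosed rats were all above the vehicle rats but differed widely among themselves, and it rose by 3.65 ± 0.65 (adjusted p = 1.1e-05). Transporters of amino acids rose: Slc7a1, for cationic ones, by 2.95 ± 0.33, the cystine importer Slc7a11 by 1.95 ± 0.24, and Slc7a5, for large neutral ones, by 1.64 ± 0.20.

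Transcripts of the machinery that makes ribosomes rose alongside. Of 33 measured ribosome biogenesis genes 28 rose and 2 fell, with a median of 0.84. Nop56, a core protein of the small nucleolar particles that guide RNA methylation, was at -0.19 to 0.15 (median -0.04) in vehicle rats and 0.88 to 2.82 (median 1.86) in dosed rats, and rose by 1.91 ± 0.22 with no overlap. The nucleolar proteins Npm1 and Ebna1bp2 rose by 1.54 ± 0.18 and 1.27 ± 0.15. The falls were Rrp9 (-0.20 ± 0.06) and Nifk (-0.59 ± 0.20), and both calls were lost without rat 5889, that of Nifk also without any 1 of 5 other rats, and both with the groups fitted alone (adjusted p = 0.152 and 0.0626). Nifk was at 0.0084 on the arrays with the rat RNA in Cy3 alone. Of 47 measured cytosolic ribosomal proteins 28 rose and 0 fell, by less, with a median of 0.43 and a largest difference of 0.93 for Rpl13. The median over them ran from -0.37 to 0.01 in the vehicle rats and from -0.05 to 0.43 in the dosed rats. These ranges overlapped through vehicle rat 0685 (0.01), whose arrays disagreed. The other vehicle rats were at -0.37 to -0.26. Many ribosomal protein genes have processed pseudogenes with nearly the same sequence.

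**Figure D2:**
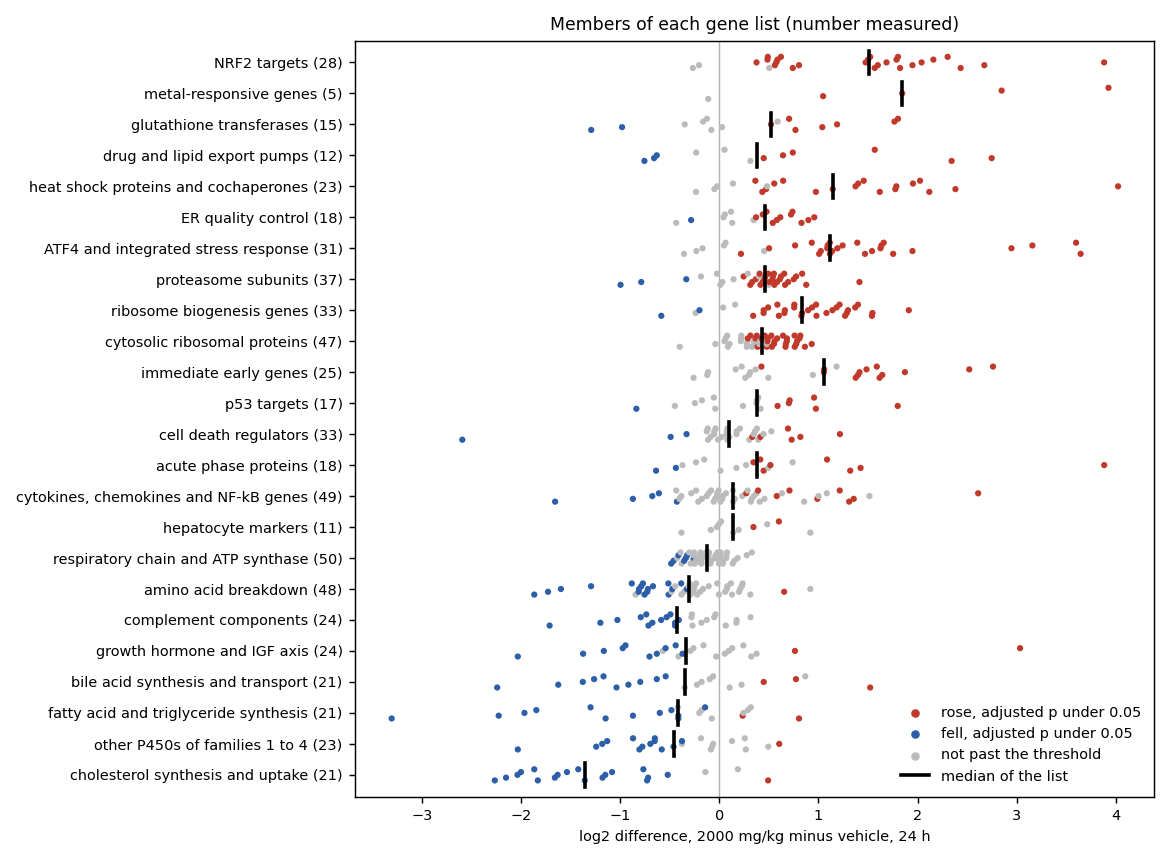
Log2 difference of the 2000 mg/kg rats from the vehicle rats at 24 h (horizontal axis) for every measured member of each gene list (points, coloured by whether they rose, fell or did not pass), with the list's median as a black bar and the number measured in brackets. NRF2 targets (25 of 28 up) and heat shock proteins (18 of 23 up) lie mostly to the right of 0 and cholesterol synthesis (18 of 21 down) to the left.

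Immediate early genes, whose transcripts appear within minutes of a stimulus and decay fast, rose in 13 of 25 measured cases with 0 falls and a median of 1.05. The growth regulator Myc was at -0.92 to 0.46 (median -0.28) in vehicle rats and 1.45 to 3.02 (median 2.48) in dosed rats, without overlap, and rose by 2.52 ± 0.40 (adjusted p = 9.7e-07). Egr1, a zinc finger factor, ran from -0.46 to 0.82 (median 0.08) and from 0.17 to 5.02 (median 2.73). Rat-to-rat spread in the dosed group was wide, 5 of 6 dosed rats lay above the vehicle range, and Egr1 rose by 2.76 ± 0.65. Without rat 5889 or without rat 8089 the count of members that rose was 8, as it was with the groups fitted alone. Over the 25 genes, the median of a dosed rat ran from 0.08 to 2.37.

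Of 17 measured p53 targets 6 rose and 1 fell (3 without rat 9388, 2 with the groups fitted alone), with a median of 0.38. The growth arrest gene Gadd45a was at -0.56 to 1.11 (median -0.26) in vehicle rats and 1.18 to 2.83 (median 1.81) in dosed rats, just without overlap, and rose by 1.80 ± 0.36. The nuclease Aen rose by 0.97 ± 0.14 and Mdm2, which marks p53 for destruction, by 0.71 ± 0.17 (adjusted p = 0.0612 with the groups fitted alone), while Ei24 fell (-0.84 ± 0.14). Among 33 measured cell death regulators 6 rose and 3 fell (1 with the groups fitted alone). The TNF receptor Tnfrsf1a rose by 1.22 ± 0.15. Bmf, a BH3-only protein that promotes apoptosis, ran from -0.02 to 0.59 (median 0.13) in vehicle rats and from -4.36 to -1.02 (median -2.31) in dosed rats. Bmf of every dosed rat was below every vehicle rat, and it fell (-2.59 ± 0.32). Of 32 measured cell cycle genes 11 fell (34.4%, beside 14.2% of rows with a symbol), or 7 with the groups fitted alone. The 4 that rose (12.5%) were a share below the 15.8% of all rows with a symbol. Among the named genes the mitotic ones fell, with the chromosomal passenger Birc5 at -1.02 ± 0.19 and the phosphatase Cdkn3 at -1.77 ± 0.35. The kinases Plk1 and Cdk1 were at -1.29 ± 0.26 and -1.56 ± 0.33 and Cdc20 at -0.35 ± 0.07. Vehicle rats 0685 and 7393 stood apart in several of these. Cdk1 was at 0.87 and 0.48 in them, at -1.39 to -0.62 in the other 4 vehicle rats and at -2.58 to -1.38 (median -1.92) in dosed rats, so that the groups met at -1.39 and -1.38. Cdkn3 was at 0.97 and 0.26 in them, at -1.31 to -0.63 in the other 4 and at -2.58 to -1.39 (median -2.36) in dosed rats, just without overlap. The replication genes Pcna and Mcm7 rose by 0.43 ± 0.10 and 0.52 ± 0.13. The number of members that rose was 2 without rat 5889, and also with either dye orientation alone. Mcm7 was at 0.29 (adjusted p = 0.382) on the arrays with the rat RNA in Cy5 alone.

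Of 6 measured genes, those of P450s that activate acetaminophen and of the reductase that serves them, 2 P450s fell and the reductase rose. Cyp2e1, the P450 best known for this step, was at 0.02 to 0.51 (median 0.29) in vehicle rats and -0.31 to 1.29 (median 0.94) in dosed rats. The ranges overlapped, and the difference of 0.48 ± 0.20 did not pass (adjusted p = 0.063), although without rat 5889 it was 0.69 with adjusted p = 0.00398. Cyp3a2, a male-dominant rat P450, ran from -0.45 to 0.54 (median -0.26) against -4.09 to -1.52 (median -3.03) and fell without overlap (-2.76 ± 0.37, adjusted p = 1.8e-08). Cyp1a2 fell as well (-1.16 ± 0.29). Por, the reductase that feeds electrons to the P450s, rose by 1.05 ± 0.18, with 4 of 6 dosed rats above the vehicle range. Of 23 other measured P450s of families 1 to 4, 13 fell and 1, the fatty acid hydroxylase Cyp4a3, rose (0.60 ± 0.19, adjusted p = 0.0575 without rat 9388). Cyp2c11, the main male-specific P450 of rat liver, was at 0.08 to 0.44 (median 0.16) against -2.78 to -1.23 (median -1.75) and fell with no overlap (-2.03 ± 0.19). P450s of a family are alike in sequence, so a probe may read more than 1 of them. Of 14 measured genes of glucuronidation and sulfation 4 fell and 1 rose. The sulfotransferase Sult1c3 fell (-2.05 ± 0.26) and Ugp2, which makes the precursor of glucuronic acid, rose (0.98 ± 0.18). Without rat 5889, 1 gene of this list fell and 2 rose, and 1 fell with the groups fitted alone.

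Genes of the hepatocytes next to the central vein, where most of the drug is activated, were examined as a group. Of 11 measured pericentral genes 5 fell, 0 rose and 6 did not pass, and without rat 5889 1 rose. The highest difference was that of Cyp2e1, described above (0.48, not past the threshold). Glul, glutamine synthetase, was at -0.13 to 0.08 (median 0.05) in vehicle rats and -2.27 to -1.59 (median -2.01) in dosed rats. The groups were well apart, and Glul fell (-1.99 ± 0.16, adjusted p = 4.5e-15). Oat, ornithine aminotransferase, was at -0.11 to 0.30 (median 0.04) against -2.32 to -1.09 (median -1.85) and fell without overlap (-1.87 ± 0.19). Rgn, a calcium-binding lactonase, and the secreted Lect2 fell too (-1.77 ± 0.27 and -1.06 ± 0.12). In bulk tissue fewer cells of a type and less RNA per cell cannot be told apart. Of 11 measured periportal genes 2 rose and 3 fell (6 without vehicle rat 1457, 1 without vehicle rat 0685, vehicle rat 7393 or rat 8089 and with the groups fitted alone), with a median of -0.38 beside -0.43 for the pericentral genes.

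Cholesterol synthesis genes fell in most cases. Of 21 measured genes 18 fell and 1 rose, with a median of -1.36, and over the list the median of a dosed rat lay between -1.53 and -1.03. Cyp51, which demethylates lanosterol, was at -0.46 to 0.10 (median -0.02) in vehicle rats and -2.59 to -1.93 (median -2.41) in dosed rats. The dosed rats were tightly grouped far below the vehicle rats, and Cyp51 fell (-2.27 ± 0.14, adjusted p = 7.6e-21). Falls were also measured for the isomerases Idi1 (-2.04 ± 0.16) and Ebp (-1.36 ± 0.11), the phosphomevalonate kinase Pmvk (-1.66 ± 0.14) and the thiolase Acat2 (-1.54 ± 0.12). The rise was Insig2 (0.49 ± 0.18, adjusted p = 0.039), which retains the sterol sensor in the ER. Its call was lost when any 1 of 7 rats was left out, for example rat 2197 (0.40, adjusted p = 0.12), and with the groups fitted alone (adjusted p = 0.136). The sterol element searched for, TCACNCCAC, was in 0 of 17 promoters of measured members and 1.09% of all promoters, which says only that these letters are not in the window.

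Fatty acid and triglyceride synthesis went the same way in 12 of 21 measured genes, with 2 rises and a median of -0.41. Fads1, the delta-5 desaturase, was at -0.19 to 0.55 (median 0.03) against -3.97 to -2.46 (median -3.18) and fell without overlap (-3.31 ± 0.26, adjusted p = 2.1e-15). Fads2, the delta-6 desaturase, was at 0.17 to 0.77 (median 0.28) against -2.42 to -1.41 (median -1.83) and fell likewise (-2.23 ± 0.16). Acly, which supplies acetyl-CoA, and Fasn, the fatty acid synthase, fell (-1.97 ± 0.26 and -1.85 ± 0.33), with 1 dosed rat inside the vehicle range for Fasn. Of 29 measured genes of fatty acid oxidation 6 fell and 3 rose. The thiolase Acaa2 rose by 0.84 ± 0.12 and the peroxisomal Ehhadh fell (-1.04 ± 0.22). Without rat 5889, 3 of the oxidation genes fell, and without rat 9388 1 rose; with the groups fitted alone 3 fell and 1 rose.

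Bile acid genes fell in 10 of 21 measured cases and rose in 3. The bile acid CoA ligase Slc27a5 fell (-1.38 ± 0.19), and so did the uptake carriers Slco1a1 (-1.26 ± 0.19) and Slco1a4 (-1.63 ± 0.30). The microsomal epoxide hydrolase Ephx1, also an NRF2-linked enzyme, rose by 1.52 ± 0.22.

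Transcripts of amino acid breakdown fell in part: of 48 measured genes 18 fell and 1 rose, with a median of -0.30, and without rat 5889 10 fell. Besides Oat, the falls included cysteine dioxygenase Cdo1 (-1.29 ± 0.19) and isovaleryl-CoA dehydrogenase Ivd (-0.79 ± 0.11). Of 10 measured urea cycle and ammonia genes 3 fell and 1 rose. Otc, ornithine transcarbamylase, fell (-1.42 ± 0.16), Arg1, arginase, rose (0.60 ± 0.12), and Cps1, which starts the cycle, was at -0.38 ± 0.17 and did not pass (adjusted p = 0.087). Cps1 passed without rat 9388 (-0.51, adjusted p = 0.0185) or vehicle rat 1457 (-0.48, adjusted p = 0.0316), and without vehicle rat 1457 the list count of falls was 5. In glucose metabolism 7 of 25 measured genes fell and 3 rose (5 rose without rat 9540, and 4 fell with the groups fitted alone). Pfkfb1, the liver enzyme that sets fructose bisphosphate, was at -0.41 to 0.46 (median 0.28) in vehicle rats and -2.13 to -1.31 (median -1.53) in dosed rats and fell without overlap (-1.84 ± 0.15). The glycogen phosphorylase Pygl and the glucokinase regulator Gckr fell (-0.98 ± 0.17 and -1.11 ± 0.27), and the mitochondrial Pck2 rose (0.48 ± 0.10), with probes that differed in sign. Igfbp1, which binds insulin-like growth factors and is induced by fasting and stress, rose by 3.04 ± 0.52. Respiratory chain genes moved little: of 50 measured subunits 7 fell and 0 rose, with a median of -0.13. Sdha of complex II was at -0.32 ± 0.07 and Ndufa6 of complex I at -0.49 ± 0.12. Without rat 5889 or without rat 8089, 4 of the 50 fell, and 11 without rat 9540.

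Among hepatocyte transcription factors and nuclear receptors 9 of 31 measured genes fell and 3 rose. The vitamin D receptor Vdr was at -0.16 to 0.16 (median 0.01) in vehicle rats and 1.09 to 1.71 (median 1.17) in dosed rats, without overlap, and rose by 1.26 ± 0.13. The glucocorticoid receptor Nr3c1 fell (-1.14 ± 0.15), while the hepatocyte factor Hnf4a was at -0.09 ± 0.09 and did not pass. Without rat 5889 the number of factors that fell was 5, and the number that rose was 1 without rat 8089 and 5 without vehicle rat 7375. With the groups fitted alone 4 fell and 1 rose. Of 24 measured genes of the growth hormone and IGF axis 10 fell and 2 rose. Igf1 was at -0.36 to -0.03 (median -0.20) against -1.25 to -0.63 (median -0.74) and fell without overlap (-0.63 ± 0.10), as did the signal transducer Stat5a (-0.98 ± 0.13) and Cish, a feedback inhibitor of the axis (-0.71 ± 0.11). The prolactin receptor Prlr rose (0.76 ± 0.17). Cyp2c11, described above, belongs to this axis as a target of the male growth hormone pattern.

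Transcripts of plasma proteins made by hepatocytes fell in part. Of 30 measured genes of secreted proteins 10 fell and 0 rose (1 rose with the groups fitted alone), with a median of -0.06. The corticosteroid-binding globulin Serpina6 (-1.57 ± 0.16) and the inhibitor chain Itih2 (-0.79 ± 0.08) were among those that fell. Complement components fell in 13 of 24 measured cases, with 0 rises and a median of -0.43. C6, of the membrane attack complex, was at -0.19 to 0.29 (median 0.18) in vehicle rats and -2.54 to -1.12 (median -1.54) in dosed rats and fell without overlap (-1.71 ± 0.19). C8b of the same complex and the protease C1s fell (-0.59 ± 0.09 and -1.03 ± 0.16). Of 22 measured coagulation genes 8 fell and 2, the fibrinogen chains Fgb (0.34 ± 0.13) and Fgg (0.41 ± 0.13), rose. Without rat 5889 neither passed (Fgb 0.22, adjusted p = 0.239, and Fgg 0.27, adjusted p = 0.1), and the call of Fgb was also lost without rat 8089 or any 1 of 3 vehicle rats. Neither passed with the groups fitted alone (adjusted p = 0.117 and 0.153). Plasma prekallikrein Klkb1 and plasminogen Plg fell (-1.17 ± 0.23 and -0.61 ± 0.11).

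Acute phase proteins, secreted by the liver in inflammation, rose in 8 of 18 measured cases and fell in 2. A2m, the alpha-2-macroglobulin that is a major acute phase protein in the rat, was at -0.36 to 0.31 (median -0.14) in vehicle rats and 2.28 to 5.85 (median 3.24) in dosed rats. It did not overlap between groups and rose by 3.88 ± 0.53 (adjusted p = 3.9e-08). Orm1, the alpha-1-acid glycoprotein, rose by 1.32 ± 0.21. The pentraxins Crp and Apcs fell (-0.64 ± 0.17 and -0.44 ± 0.11). Without rat 5889 the number that rose was 5, and with the groups fitted alone it was 3.

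Markers of cell types other than hepatocytes fell in part. Of 14 measured Kupffer cell and macrophage markers 5 fell and 0 rose, and the median over the list lay between -0.46 and -0.14 in the dosed rats and between -0.08 and 0.28 in the vehicle rats. Clec4f, a lectin of resident Kupffer cells, was at -0.11 to 0.37 (median 0.17) against -1.50 to -0.58 (median -0.64) and fell without overlap (-0.91 ± 0.14), and Cd5l fell as well (-0.79 ± 0.13). Of 13 endothelial markers 7 fell and 0 rose. Plvap (-0.32 ± 0.06) and Emcn (-0.62 ± 0.12) were among them. Of 15 stellate cell and fibroblast markers 5 fell and 0 rose. Lrat, which esterifies retinol for storage in stellate cells, was at -0.69 to 0.29 (median -0.18) in vehicle rats and -2.87 to -1.18 (median -1.79) in dosed rats and fell without overlap (-1.73 ± 0.21). The pericyte receptor Pdgfrb and the collagen Col1a2 fell (-0.93 ± 0.16 and -0.80 ± 0.15). Of 13 lymphocyte markers 3 fell, of 5 red cell and platelet markers 1 fell, and of 7 cholangiocyte markers 0 passed with limma. Krt19 was at -0.16 ± 0.11 and Epcam at 0.02 ± 0.11, and Slc4a2, at 0.46 ± 0.18 (adjusted p = 0.05), was the nearest to the threshold. The part that cell numbers play in these values was not tested.

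**Figure D3:**
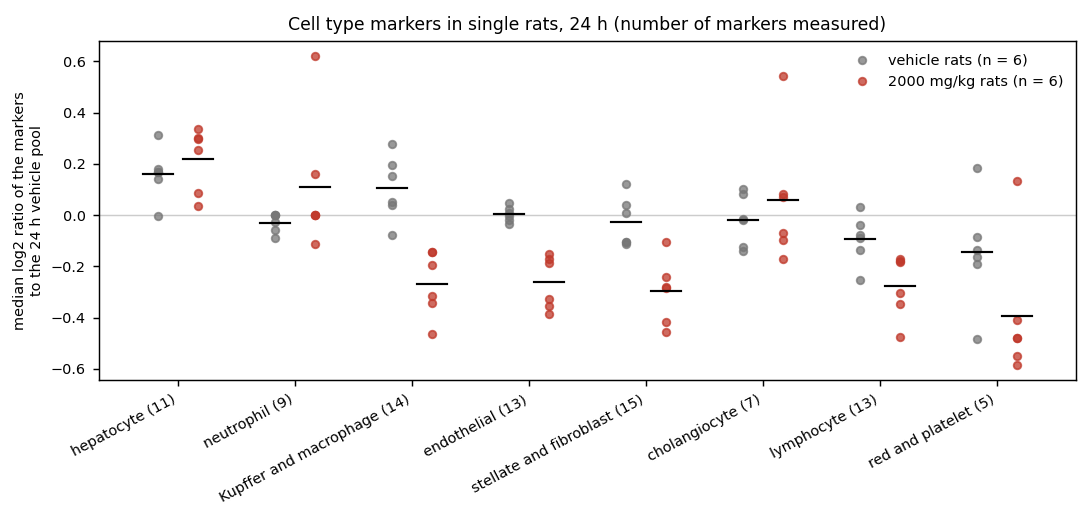
Median log2 ratio over the measured markers of each liver cell type in each vehicle rat and each 2000 mg/kg rat (points, vertical axis). Kupffer and endothelial medians of all dosed rats lie below those of all vehicle rats, and the neutrophil median is highest, 0.62, in rat 5889.

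Inflammatory genes rose in shares not far from the 15.8% of all rows with a symbol. Of 9 measured neutrophil markers 1 rose (11.1%) and 0 fell. Of 49 measured genes for cytokines, chemokines and the NF-kB pathway 9 rose (18.4%) and 5 fell (10.2%, beside 14.2% of rows with a symbol). S100a9, a calcium-binding protein of neutrophils and monocytes, ran from -1.51 to -0.17 (median -0.64) in vehicle rats and from -0.68 to 4.55 (median 0.03) in dosed rats. Rats 5889 (4.55) and 8089 (2.32) were high and the other 4 lay between -0.68 and 0.26, and the rise of 1.64 ± 0.54 (adjusted p = 0.019) did not pass without rat 5889 (0.92, adjusted p = 0.189) or without rat 8089 (1.37, adjusted p = 0.0753), nor with the groups fitted alone (adjusted p = 0.203). Ccl2, which draws monocytes, ran from -0.67 to 0.46 (median -0.02) and from -0.36 to 6.10 (median 2.37). It was at 6.10, 4.85, 3.70 and 1.03 in rats 5889, 8089, 2015 and 2197 and at -0.12 and -0.36 in rats 9388 and 9540. So 4 of 6 dosed rats were above the vehicle range, and the rise was 2.61 ± 0.74 (adjusted p = 0.0052), which did not pass with the groups fitted alone (adjusted p = 0.115). Ccl7, a relative of Ccl2, rose by 1.36 ± 0.37 with all dosed rats above the vehicle rats, and by 0.90 without rat 5889. It did not pass with the groups fitted alone (adjusted p = 0.0839). Cxcl2, a neutrophil chemoattractant, was at 5.37 in rat 5889 and at 1.80 in rat 8089, with the other dosed rats between -0.33 and 0.23. It rose by 1.31 ± 0.50 (adjusted p = 0.047), was at 0.46 (adjusted p = 0.471) without rat 5889, and lost its call without any 1 of 7 other rats and with the groups fitted alone (adjusted p = 0.338) too. Cxcl12, made by stromal cells, fell (-1.66 ± 0.31). The number of cytokine genes that rose was 3 without rat 8089 and 14 without rat 9540, and it was 1 with the groups fitted alone. The number of neutrophil markers past limma's threshold was 0 without rat 5889, without rat 8089 or with the groups fitted alone, and 3 without rat 2197.

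Mmp3, stromelysin 1, was at -0.25 to 0.16 (median -0.10) in vehicle rats and 0.14 to 4.25 (median 2.35) in dosed rats, with 5 of 6 dosed rats above the vehicle range, and rose by 2.40 ± 0.47. In all, 7 of 31 measured matrix and protease genes rose and 6 fell, and 2 rose with the groups fitted alone. Of 39 measured cytoskeleton, annexin and S100 genes 6 rose and 8 fell, with Anxa7 up by 1.49 ± 0.14 and the smooth muscle myosin light chain Myl9 down (-1.35 ± 0.12).

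Several of the largest changes fell outside these lists. Csmd1, a large membrane protein with complement-control domains, was at -0.98 to 0.93 (median -0.44) in vehicle rats and 3.10 to 3.72 (median 3.40) in dosed rats and rose without overlap (3.68 ± 0.31, adjusted p = 2e-14). Stac3, known from muscle as part of the calcium channel complex, fell by a wide margin. It ran from -0.06 to 0.88 (median 0.52) in vehicle rats and from -5.04 to -2.74 (median -4.43) in dosed rats. The groups lay far apart, and the fall was -4.72 ± 0.39 (adjusted p = 6.3e-15). Nrep, a neuronal regeneration protein, was at -1.14 to 0.06 (median -0.46) against -6.32 to -3.15 (median -4.30) and fell (-3.96 ± 0.44). Car7, a cytosolic carbonic anhydrase, was at -0.27 to 1.02 (median 0.69) against -4.12 to -1.80 (median -2.89) and fell (-3.50 ± 0.33). The indole methyltransferase Inmt, the vasopressin receptor Avpr1a and the homeobox factor Meox2 fell (-2.70 ± 0.32, -2.38 ± 0.31 and -2.19 ± 0.37, in turn), as did the seizure-related Sez6 (-3.28 ± 0.36). For each of these, all dosed rats were outside the vehicle range, as the rule for naming them required.

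The dosed rats differed in the size of their response. Over the 2242 rows that rose, the median difference of a dosed rat from the vehicle mean was 0.34 in rat 9540, 0.38 in rat 2197, 0.50 in rat 9388, 0.53 in rat 2015, 0.75 in rat 5889 and 0.76 in rat 8089. Over the 2366 rows that fell it was -0.30, -0.36, -0.47, -0.47, -0.63 and -0.62 in the same order. Rat 9540 was the lowest dosed rat in 878 of the risen rows and the highest in 901 of the fallen rows. These rows were chosen with the same rats, so the values describe the group. The order was not the same for every gene. Of the dosed rats, rat 5889 had the lowest Nqo1 (1.66) and the highest Cyp51 (-1.93), and rat 9540 had the lowest Cyp51 (-2.59). The spread differed too: Nqo1 ran from 1.66 to 2.30 in the dosed rats and Cyp51 from -2.59 to -1.93, whereas Hspa1a ran from 1.48 in rat 9540 to 5.84 in rat 8089. The largest SDs among genes past the threshold belonged to Ccl2, Cxcl2, S100a9, Fos, Rnd1 and Ampd3. Fos, an immediate early factor, was at -0.99 to 0.34 (median -0.10) in vehicle rats and 0.04 to 4.48 (median 0.86) in dosed rats, with 3 of 6 dosed rats above the vehicle range. It rose by 1.87 ± 0.60 (adjusted p = 0.015) and did not pass without rat 5889 (1.31, adjusted p = 0.113) or rat 8089 (1.51, adjusted p = 0.0749), nor with the groups fitted alone (adjusted p = 0.117). The GTPase Rnd1 rose by 1.68 ± 0.49 and the AMP deaminase Ampd3 by 1.48 ± 0.46, each with 4 of 6 dosed rats above the vehicle range. Rnd1 did not pass without rat 5889 or 8089, nor Ampd3 without rat 5889 or 2015, and with the groups fitted alone neither passed (adjusted p = 0.171 and 0.205).

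**Figure D4:**
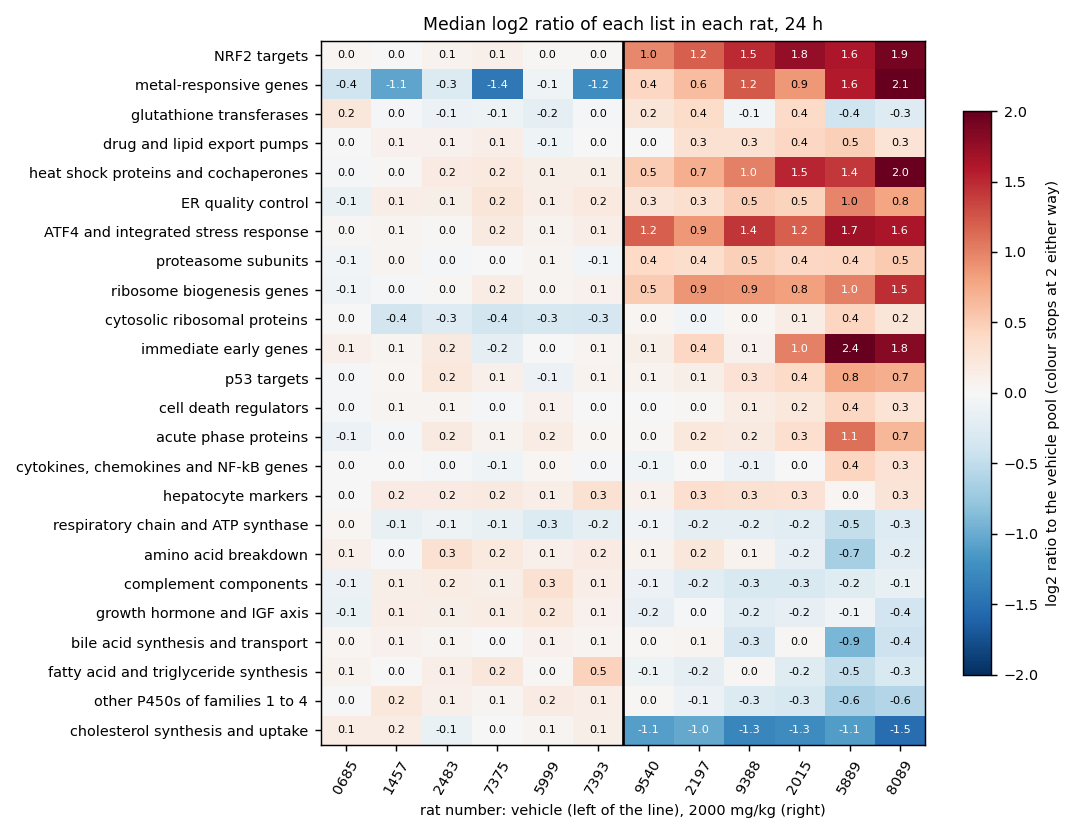
Median log2 ratio over the measured members of each list in each vehicle rat and each 2000 mg/kg rat (colour scale, log2 ratio to the pool). NRF2 targets are between 0.96 and 1.92 and cholesterol genes between -1.53 and -1.03 in every dosed rat, while immediate early genes range from 0.08 to 2.37.

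The dose of 1500 mg/kg at the same time served to ask what the higher dose added. With limma, 0 of 18978 rows were higher (0%) and 0 lower (0%) at 2000 than at 1500 mg/kg. An unadjusted p below 0.05 was found in 845 rows, no more than are met on average if no row differs. Akr7a3 differed by 0.47 ± 0.22 between the doses, Trib3 by 0.58 ± 0.34, Mt2A by 0.28 ± 0.48, Hspa1a by 0.64 ± 0.58 and Stac3 by -0.70 ± 0.39. Cyp51 gave -0.50 ± 0.14 (adjusted p = 0.93). A p that misses the threshold does not show that the doses act alike. Against the vehicle rats that both doses share, the differences at 1500 mg/kg were 3.41 ± 0.22 for Akr7a3, 3.39 ± 0.58 for Hspa1a, -1.77 ± 0.14 for Cyp51 and -4.02 ± 0.39 for Stac3.

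The response at 24 h was set against that at 6 h, where each time has its own vehicle rats and pool. At 6 h, 1007 rows rose (5.31%) and 1108 fell (5.84%) against vehicle. The difference from vehicle was higher at 24 h than at 6 h in 1240 rows (6.53%) and lower in 1224 (6.45%). Many members of the stress lists differed between the times. Of 28 NRF2 targets 6 had risen at 6 h, and 18 were higher at 24 h than at 6 h. Akr7a3 was at 0.21 ± 0.22 at 6 h and changed by 3.67 ± 0.30 (adjusted p = 7e-14) to 24 h. Of 23 heat shock genes 2 rose and 1 fell at 6 h, and 16 were higher at 24 h. Of 33 ribosome biogenesis genes 23, and of 37 proteasome subunits 18, were higher at 24 h. The 5 metal-responsive genes were already up at 6 h in 3 cases, with a median of 2.02. Mt2A was at 2.27 ± 0.48 at 6 h, and its change of 1.65 ± 0.68 to 24 h did not pass. Igfbp1 was at 2.99 ± 0.52 at 6 h. Of 31 ATF4 genes 13 rose and 2 fell at 6 h, and 14 were higher at 24 h.

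The falls differed between the times as well. Of 21 cholesterol genes 9 had fallen at 6 h and 12 were lower at 24 h than at 6 h, with Cyp51 at -0.44 ± 0.14 at 6 h. Of 48 genes of amino acid breakdown 10 rose and 3 fell at 6 h, and 20 were lower at 24 h. Of 50 respiratory chain subunits 9 rose and 0 fell at 6 h, and 12 were lower at 24 h. Some genes changed sign between the times. Abcb1a fell at 6 h (-1.36 ± 0.35) and rose at 24 h, a change of 4.11 ± 0.50 (adjusted p = 1.4e-08). Aspa, aspartoacylase, rose at 6 h (1.80 ± 0.30) and fell at 24 h (-1.60 ± 0.30), a change of -3.40 ± 0.42 (adjusted p = 2.6e-08). Zfp354a, a zinc finger gene named for its loss in injured kidney, was at 1.21 ± 0.43 at 6 h and was at -1.63 ± 0.43 at 24 h, a change of -2.84 ± 0.61. At 24 h it was at 1.13 and 1.08 in vehicle rats 0685 and 7393, at -1.81 to -1.20 in the other 4 vehicle rats and at -2.56 to -2.02 (median -2.18) in dosed rats, and its fall did not pass with the groups fitted alone (adjusted p = 0.0547). Csmd1 (3.16 ± 0.44) and Ccl2 (3.03 ± 1.04, adjusted p = 0.041) were higher at 24 h than at 6 h, and Car7 (-2.91 ± 0.46) and Sez6 (-2.71 ± 0.51) were lower.

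**Figure D5:**
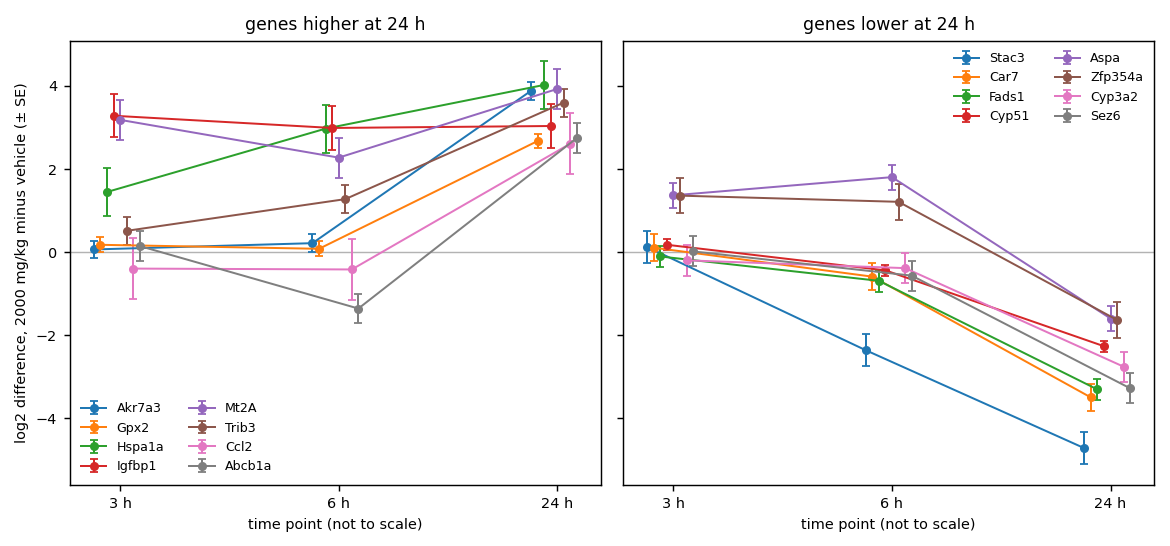
Log2 difference of the 2000 mg/kg rats from the vehicle rats of the same time at 3, 6 and 24 h (horizontal axis, not to scale) for named genes, with SE bars. Mt2A and Igfbp1 are past the threshold at each time, Akr7a3 and Gpx2 at 24 h, and Abcb1a and Aspa change sign between 6 and 24 h.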

How the data were processed

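The authors deposited 1 value per probe and array, read here as the log10 of Cy5 over Cy3, together with a table giving each rat's dose. How backgrounds and dyes were corrected, which base was used and which channel was divided by which are not given in the sources. Array medians lay between 0 and 0.000258, 7.74% of values were exactly 0 and 0.836% blank. Another base would scale every difference by a common factor, and a dye effect that varied between arrays would widen the spread between rats.

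Values were multiplied by 3.32 to give log2, turned in sign where the rat's RNA was in Cy3, averaged over a rat's 2 arrays and over the probes of 1 symbol, giving 18978 rows from 22075 probes. Of 670 called genes with several probes, 77 had probes of opposite sign. Limma 3.58.1 (R 4.3.3) fitted 12 group means to 72 rats, and contrasts were tested two-sided with Benjamini-Hochberg adjustment at 0.05 over all rows. Vehicle rats are shared by both 24 h dose contrasts. On simulated data for this contrast, with 200 of 18978 rows changed, 50% of changes of 0.5, 86% of changes of 1 and 100% of changes of 2 were recovered, with 10 false among 171 calls. Recovery and false calls were not tested with as many changed rows as the 4608 called here. Among called rows the median SD was 0.26 in the dosed rats and 0.17 in the vehicle rats. Recovery and false calls under such unequal spread were not tested either. Tables and figures used Python 3.11.15, pandas 2.3.3, NumPy 2.4.6 and matplotlib 3.10.9.

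The members and the 47 gene lists were chosen with earlier results of these data known, so list counts are descriptions. Of 1398 list entries 1061 were measured. Named genes followed a rule: the 12 largest rises and falls without overlap, up to 5 members per list with the smallest p and up to 2 against the majority, the 6 with the largest SD, the 4 largest changes each way between times, and direction checks. The genes first named under the other observations were picked outside this rule, after their values were seen. They are counted among the named genes. Motifs were searched in 33469 RefSeq promoter windows. Alternatives were centring, either dye, zeros as missing, probes unaveraged, compared groups alone, quality weights, the blank-probe set, rats with disagreeing arrays, a fold of 1.5 and leaving out each rat. No column of array values was left out.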

Additional observations from a re-analysis of the deposited data

Results flagged for a closer look

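By limma's test of the change between the times, the difference from vehicle was higher at 24 h than at 6 h for 55 of the genes named in the text and lower for 64. The genes that the naming rule took for the size of this change, 4 in each direction, are given here. The changes on the log2 scale were 4.11 for Abcb1a, 3.67 for Akr7a3, 3.16 for Csmd1, 3.03 for Ccl2, -2.71 for Sez6, -2.84 for Zfp354a, -2.91 for Car7 and -3.40 for Aspa. Over all gene rows 1240 were higher (6.53%) and 1224 lower (6.45%) at 24 h.

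Among the 364 sets of 6 rats examined (each named gene in vehicle and in dosed rats), 17, or 4.67%, had a rat set apart from the other 5 by more than Dixon's limit. In independent sets not chosen by their values, chance gives about 1 in 20. Many named genes were chosen by values of these rats, and all sets share them, so that rate does not apply here. In the dosed rats all 5 such sets had rat 5889 apart. It was highest in Abcb1a (5.65), Cxcl2 (5.37), Umps (3.36) and Fgb (1.04) and lowest in Clec4f (-1.50). In the vehicle rats 6 of the sets had rat 0685 apart. It was highest in Aspa (0.32) and Mgst3 (0.27) and lowest in Slc30a1 (-1.21), Creld2 (-0.31), Hsp90b1 (-0.20) and Sqstm1 (-0.03). Vehicle rat 1457 was highest in Abcg5 (0.91) and Gclm (0.49), vehicle rat 7375 in Trib3 (0.58) and vehicle rat 7393 in Fads2 (0.77). Vehicle rat 7393 was lowest in Glul (-0.13) and vehicle rat 2483 in Gpx2 (-0.40).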

How the results depend on the processing

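Centring the arrays left all 4608 calls in place. With 1 dye orientation, 3294 (rat RNA in Cy5) and 3407 (Cy3) of the 4608 were called in the same direction. The covariate for the shared blank probes kept 4494, and fitting the compared groups alone kept 3049. Counts against vehicle moved to 1378 higher and 1394 lower in rats with no array in the blank set, and to 1006 and 1354 in rats with both. Of the 4608 calls 2623 were kept in rats with no array in the set. In rats with both, 1984 were kept and 9 had the opposite sign. Why these counts were lower was not tested. With a fold of at least 1.5 required, which can only remove calls, the counts were 1038 and 867. Leaving out 1 rat at a time gave 1844 to 2416 rows higher and 1993 to 2517 lower. For 24 h against 6 h the counts were 408 and 379 in rats with no array in the set, 388 and 462 in rats with both, 781 higher without the rats whose arrays disagreed and 1846 lower with quality weights, and the cause was not tested. Leaving out 1 rat gave 1042 to 1369 higher and 1044 to 1358 lower. Between 2000 and 1500 mg/kg, 6 rows were higher in rats with no array in the set, and leaving out 1 rat gave 0 to 0 in either direction. Of 173 named genes that passed, 165 to 173 kept their call when the centring, dye, zeros or covariate was changed, 159 with the compared groups alone and 138 in rats with both arrays in the set. Nifk reversed, to 0.0084, with Cy3 alone. Named genes were not compared with 1 row per probe. Counts of few list members often moved by 1 or 2 when a rat was left out. No paired analysis was possible because rats carry their own numbers, which groups do not share. Probe intensities were not analysed here, so signal over background is unknown.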

Other observations

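Gene groups chosen after their values were seen are described here without a test of the group. Genes that charge and use transfer RNA were higher in the dosed livers: of 15 measured aminoacyl-tRNA synthetases of the cytosol 12 rose and 0 fell (median 0.48), with Yars1 at 1.27 ± 0.13 and Iars1 at 1.16 ± 0.14. Of 38 measured translation initiation and elongation factors 30 rose and 0 fell (median 0.46). Among them were Eif4a1, the helicase that opens messenger RNA (1.14 ± 0.14), and Eif2b3, a subunit of an exchange factor of initiation (1.30 ± 0.19). Of 7 measured subunits of the cytosolic chaperonin and prefoldin 5 rose and 0 fell (median 0.92), with Cct6a at 1.24 ± 0.12. At 6 h, 1 of the 15 synthetases and 3 of the 38 factors had risen.

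Transcripts of nucleotide synthesis and breakdown moved in opposite directions. Of 20 measured genes of purine and pyrimidine synthesis 14 rose and 1 fell, with the salvage kinase Uck2 at -0.84 to 0.66 (median 0.05) in vehicle rats and 0.69 to 3.59 (median 2.23) in dosed rats, a rise of 2.15 ± 0.31 with no overlap. Umps, which makes the first pyrimidine nucleotide, rose by 1.55 ± 0.22. Of 9 measured genes of purine and pyrimidine breakdown 6 fell and 0 rose, with Pnp at -0.66 ± 0.07 and Dpys at -0.82 ± 0.18. In polyamine synthesis spermidine synthase Srm rose by 1.40 ± 0.15 and ornithine decarboxylase Odc1 by 0.94 ± 0.15, in a group of 7 measured genes of which 5 rose and 1 fell. Nuclear transport genes rose in 19 of 35 measured cases and fell in 1, with Ran at 1.12 ± 0.18.

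Antigen presentation and interferon-linked genes fell in 13 of 35 measured cases and rose in 2. The ubiquitin-like modifier Ubd was at -0.53 to 0.10 (median -0.01) in vehicle rats and -3.47 to -1.15 (median -1.66) in dosed rats and fell without overlap (-1.81 ± 0.24), and the MHC light chain B2m fell (-0.72 ± 0.16). The factor Irf1 was 1 of the rises (0.63 ± 0.11). Of 18 measured selenoproteins 4 rose and 4 fell, so that Gpx2, described above, rose while the general glutathione peroxidase Gpx1 (-1.10 ± 0.17), the plasma selenium carrier Selenop (-1.08 ± 0.17) and the deiodinase Dio1 (-1.25 ± 0.18) fell, each with no overlap between groups. Of 30 measured steroid and drug oxidoreductases outside the P450s 14 fell and 6 rose, with Hsd11b2 at -1.99 ± 0.17 and the flavin monooxygenase Fmo1 at -1.96 ± 0.31.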
